A study of Mus musculus with 12 samples.

Results

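The genes described here are those of the GATA switch, Gata2, Kit and Zfpm1, together with Gata1 and Esr1, whose reads can come from the GATA1-ER transgene of the cells. They were chosen by gene symbol, and 5 of the 17210 genes in the count table are members. RNA was sequenced from 12 libraries of G1E-ER4 cells, 3 in each of 4 groups, to ask how the active fragment of SREBP2, the master activator of cholesterol synthesis genes, and the induction of GATA1 change the transcriptome of an erythroid progenitor. All 12 libraries came from the same line, in which the cells' own Gata1 is disrupted and mouse GATA1 is supplied as a fusion with the hormone-binding domain of human estrogen receptor, so that β-estradiol (EST) activates it. The Vector group was transduced with an empty retrovirus for 24 h, and the SREBP2 group for the same time with a retrovirus for active SREBP2. Both are called untreated in the sample labels, while the protocol has vehicle for 6 h as the control of EST. Vector+EST and SREBP2+EST were transduced in the same way and then given EST for the same 6 h. For the dose of EST the sample protocol has 500 nM, whereas the series design has 200 nM. The labels give the strain as C57BL/6J. They do not say whether the libraries of a group came from separate cultures, so p-values measure the spread between these libraries, which may be technical. The line is a clone, and the promoter that drives the fusion is not given in the sources used here. Since the receptor domain is human, its reads can reach the mouse Esr1 gene only where the sequences match, and how completely they were counted there was not tested.

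GATA2 is the GATA factor of hematopoietic stem and progenitor cells, and GATA1 replaces it at many sites in chromatin as erythroid cells mature. This exchange, the GATA switch, silences the Gata2 gene itself and the gene of the stem cell factor receptor, Kit. It depends at many targets on FOG1, the zinc finger cofactor of GATA1 encoded by Zfpm1, which itself rises when GATA1 is restored.

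The unit of levels is CPM, in which counts are brought to a common library size with TMM (trimmed mean of M values) factors, and libraries carry the numbers of the column headers. Totals ran from 18700959 to 19152281 estimated counts per library, and 3 counts, the lowest level taken as detected, came to between 0.153 and 0.163 CPM. Each of the 9 erythroid markers was detected in every library, with summed levels of 7859 to 8240 CPM in Vector, 6654 to 6662 CPM in Vector+EST, 6236 to 7180 CPM in SREBP2 and 6080 to 6650 CPM in SREBP2+EST. The sum was thus highest in the 3 Vector libraries, and its part in the results was not tested. Its highest genes were the globin genes Hba-a1, at 1525 to 3223 CPM over the libraries, and Hbb-b1, at 2549 to 3315 CPM, whose reads are uncertain. Other markers of this list went the other way, and Alas2 and Klf1 were lower in Vector than with EST or with SREBP2. By contrast, the 3 measured markers of embryonic stem cells, the cell type given in the labels, summed to between 0.0530 and 0.650 CPM. Nanog reached at most 11 counts, Sox2 at most 3 and Esrrb at most 1 in any library. The transduced SREBP2 is described as human in the study's materials, and how many of its reads were counted under the mouse gene Srebf2 was not tested. Srebf2 stood at 361 ± 8.32 CPM (SD, n = 3) in Vector, 442 ± 13.0 CPM in Vector+EST, 816 ± 20.1 CPM in SREBP2 and 808 ± 6.66 CPM in SREBP2+EST, and the libraries of both SREBP2 groups did not overlap with those of either Vector group. The summed level of 7 fibroblast or stroma markers differed between libraries and was 19.2 to 19.9 CPM in Vector, 18.7 to 35.2 CPM in SREBP2+EST, 4.03 to 5.48 CPM in SREBP2, and 4.71, 4.74 and 36.5 CPM in Vector+EST libraries 3, 1 and 5. The part of this difference in the results was not tested. Every call of a member in a comparison with Vector held without Vector+EST library 5 and without any other single library.

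For Gata1, SREBP2 library 1 and SREBP2+EST library 1 stood apart from the other libraries of their own groups. It was at 511 CPM in SREBP2 library 1 against 585 and 575 CPM in SREBP2 libraries 3 and 5. It was at 577 CPM in SREBP2+EST library 1 against 469 and 513 CPM in SREBP2+EST libraries 2 and 5, so that for this gene each library 1 lay among the libraries of the other group. Esr1 was likewise lowest of its group in SREBP2 library 1 (75.2 against 91.0 and 92.8 CPM) and highest in SREBP2+EST library 1 (94.7 against 81.2 and 88.3 CPM). Kit was also lowest in SREBP2 library 1 (232 against 251 and 239 CPM) and highest in SREBP2+EST library 1 (253 against 227 and 226 CPM). Gata2 and Zfpm1 did not show this pattern, and by the summed stroma markers each lay with its own group, at 4.03 CPM in SREBP2 library 1 and 21.1 CPM in SREBP2+EST library 1. That sum ran from 4.71 to 36.5 CPM within Vector+EST alone. Over all genes tested, deviations from group means correlated at r = -0.17 between the 2 library 1s, the lowest of any pair from different groups. SREBP2 library 1 gave r = 0.11 and 0.088 with SREBP2+EST libraries 2 and 5. SREBP2+EST library 1 gave r = 0.065 and 0.13 with SREBP2 libraries 3 and 5. Whether the 2 libraries were exchanged was not tested. The groups were kept as labelled, and the values without both are given for each comparison among the 3 groups other than Vector.

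**Figure D1:**
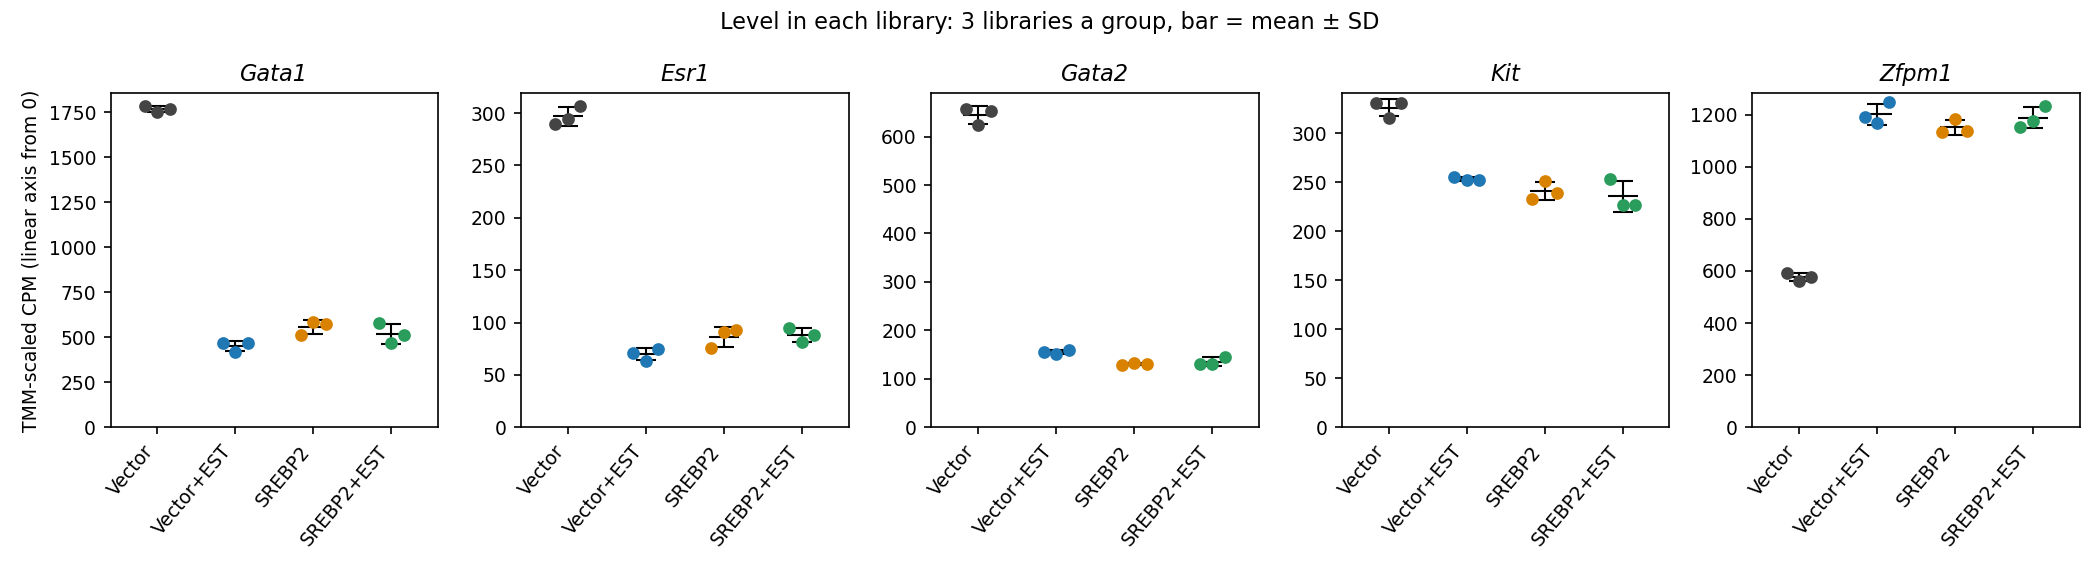
Level of each member in each of the 12 libraries, in TMM-scaled CPM on linear axes from 0, by group, with bars for the mean ± SD of 3 libraries. For Gata1, Esr1, Gata2 and Kit the 3 Vector libraries lie above the other 9, and for Zfpm1 they lie below them.

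All 5 members passed the filter on low counts, and their levels placed them among the higher genes of the table. By mean CPM over the 12 libraries Zfpm1 ranked 91, Gata1 120, Gata2 690, Kit 704 and Esr1 1805 of 17210 genes. Per kilobase of the longest coding transcript in GENCODE M21, Gata1 was the highest of the members in Vector, with 930.3 ± 8.97 CPM per kb against 180.5 ± 4.95 for Gata2, 170.3 ± 4.63 for Zfpm1 and 62.2 ± 1.66 for Kit (SD, n = 3). In Vector+EST this order became Zfpm1 with 354.5 ± 12.1 CPM per kb, Gata1 with 238 ± 15.0, Kit with 48.3 ± 0.395 and Gata2 with 43.6 ± 1.28. The same order held in SREBP2, at 339.6, 293, 46.0 and 36.7 CPM per kb, and in SREBP2+EST, at 350.5, 273, 44.9 and 37.9 CPM per kb. Per kilobase, Zfpm1 thus stood above Gata1 and Kit above Gata2 in the 3 groups other than Vector. Because Esr1 was divided by a transcript of 6339 bases of which the fusion carries only a part, its values of 46.8 CPM per kb in Vector and 11.0 to 13.9 in the other groups cannot be read as a level of the fusion.

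The sequences upstream of Gata2, Kit and Zfpm1 are shown because these are the members whose own genes are read out here and which all differed between Vector and the other groups, Gata2 and Kit being lower and Zfpm1 higher there. Each is the 250 bases before a transcription start, from RefSeq on GRCm38.p6, written 5′ to 3′ on the strand of the gene. Capitals mark the GC box GGGCGG, on either strand, and the CCAAT box, CCAAT on either strand.
Gata2, start site 1, chr6:88193641-88193890, plus strand: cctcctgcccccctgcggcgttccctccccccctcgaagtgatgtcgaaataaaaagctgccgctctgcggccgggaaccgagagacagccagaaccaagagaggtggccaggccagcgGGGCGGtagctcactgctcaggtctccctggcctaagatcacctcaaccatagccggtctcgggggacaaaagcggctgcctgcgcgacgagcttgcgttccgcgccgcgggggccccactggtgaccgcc
Gata2, start site 2, chr6:88198414-88198663, plus strand: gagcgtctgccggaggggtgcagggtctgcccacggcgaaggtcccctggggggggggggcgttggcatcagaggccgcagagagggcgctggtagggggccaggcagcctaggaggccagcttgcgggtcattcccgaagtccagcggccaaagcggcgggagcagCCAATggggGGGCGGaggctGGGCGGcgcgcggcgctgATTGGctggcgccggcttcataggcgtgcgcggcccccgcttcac
Kit, chr5:75574737-75574986, plus strand: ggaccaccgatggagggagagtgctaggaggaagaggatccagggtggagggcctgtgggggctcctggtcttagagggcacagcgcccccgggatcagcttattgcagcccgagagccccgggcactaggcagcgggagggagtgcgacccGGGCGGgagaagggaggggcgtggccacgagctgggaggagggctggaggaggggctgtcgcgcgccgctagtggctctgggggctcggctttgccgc
Zfpm1, chr8:122281891-122282140, plus strand: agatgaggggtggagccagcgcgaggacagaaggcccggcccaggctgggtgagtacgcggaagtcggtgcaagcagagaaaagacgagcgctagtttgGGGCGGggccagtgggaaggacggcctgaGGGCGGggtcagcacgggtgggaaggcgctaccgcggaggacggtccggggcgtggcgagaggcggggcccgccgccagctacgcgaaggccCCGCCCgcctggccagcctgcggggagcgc
Gata2 is on chromosome 6 and has more than 1 start of transcription, the first of them distal. The window of start site 1 held 1 GC box, 131 bases before the start, and that of start site 2 held 2 GC boxes and 2 CCAAT boxes. The Kit window held 1 GC box and the Zfpm1 window 3, the nearest 30 bases before the start. A GC box occurs in 32.7% and a CCAAT box in 33.8% of the 32851 promoter windows of this length. None of these 4 windows held the GATA motif, searched as AGATAA, as AGATAG, as TGATAA and as TGATAG on either strand and found in 26.5% of all windows, or the sterol element TCACNCCAC, found in 1.05%. In GENCODE M21 on GRCm38 the genes span chr6:88193891-88207032 for Gata2, chr5:75574916-75656722 for Kit and chr8:122282141-122337251 for Zfpm1, all on the plus strand. The other 2 members span chrX:7959260-7978071 on the minus strand for Gata1 and chr10:4611593-5005614 on the plus strand for Esr1. Zfpm1 is overlapped on the same strand by Gm20388, which has no values in the count table, so reads from the shared stretch cannot be told apart.

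EST in Vector cells, which activates the fusion, lowered Gata1, Esr1, Gata2 and Kit and raised Zfpm1. All 5 members passed the test, in a comparison in which 70.6% of the 11177 genes tested did so, 35.2% of them higher and 35.5% lower. For Gata2 the 3 Vector libraries were at 656, 624 and 653 CPM and the 3 Vector+EST libraries at 156, 151 and 160.0 CPM. The groups were far apart, and Gata2 was 4.14-fold lower with EST (log2 fold change -2.05, SE 0.045, adjusted p = 3.425e-15, edgeR quasi-likelihood test with Benjamini-Hochberg adjustment). It ranked 207 among falls by size.

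Kit, the receptor tyrosine kinase that sustains progenitor proliferation and survival, was at 331, 316 and 331 CPM in Vector and at 256, 252 and 252 CPM in Vector+EST. The groups did not overlap, and the fall was 1.29-fold (log2 fold change -0.36, SE 0.045, edgeR adjusted p = 2.09e-06). It was smaller in size than that of Gata2 and ranked 2807 among falls. Zfpm1 was at 592, 561 and 579 CPM in Vector and at 1190.3, 1168 and 1247 CPM in Vector+EST. Every Vector+EST library lay above every Vector library, and the rise was 2.08-fold (log2 fold change 1.06, SE 0.037, edgeR adjusted p = 5.557e-13), which ranked 863 among rises.

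Gata1 reads, which in these cells can come from the fusion and from any transcript left of the disrupted gene, were at 1786, 1752 and 1771 CPM in Vector and at 467, 420 and 471 CPM in Vector+EST. All Vector+EST libraries lay below all Vector libraries, and the fall was 3.91-fold (log2 fold change -1.97, SE 0.068, edgeR adjusted p = 4.997e-13). Esr1, which encodes estrogen receptor α and under which reads of the fusion's receptor part can be counted, was at 289, 295 and 306 CPM in Vector and at 70.5, 63.5 and 74.8 CPM in Vector+EST. It was 4.26-fold lower with EST (log2 fold change -2.09, SE 0.076, edgeR adjusted p = 8.168e-13). In bulk RNA, fewer cells that carry a transcript and less transcript per cell cannot be told apart. Leaving out any library, another scaling, another filter or DESeq2 kept all 5 calls and their directions.

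SREBP2 without EST moved the same 5 genes in the same directions, although no EST had been added to these cells. This comparison and that of EST in Vector cells share the 3 Vector libraries, and 71.5% of the genes tested passed the test in it, 37.7% higher and 33.8% lower. Gata2 was at 128, 133 and 132 CPM in the SREBP2 libraries, 4.92-fold below Vector (log2 fold change -2.30, SE 0.046, edgeR adjusted p = 7.921e-16), and ranked 113 among falls. Gata1 was at 511, 585 and 575 CPM, or 3.18-fold lower (log2 fold change -1.67, SE 0.067, edgeR adjusted p = 2.174e-12). For both genes every SREBP2 library lay below every Vector library. Esr1 was at 75.2, 91.0 and 92.8 CPM, or 3.44-fold lower (log2 fold change -1.78, edgeR adjusted p = 3.407e-12). Kit, at 232, 251 and 239 CPM, was 1.35-fold lower (log2 fold change -0.44, edgeR adjusted p = 2.481e-07). Zfpm1 was the member that rose, and at 1132, 1185 and 1137 CPM it was 1.99-fold higher than in Vector (log2 fold change 1.00, edgeR adjusted p = 8.291e-13). These 5 calls also held under every alternative tried.

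With both treatments the levels were close to those with either alone. In SREBP2+EST libraries 1, 2 and 5, Gata2 was at 130.4, 130.0 and 145 CPM and Zfpm1 at 1155, 1176 and 1233 CPM. Against Vector all 5 members passed the test, as did 72.7% of the genes tested (38.6% higher and 34.2% lower), with log2 fold changes of -2.25 for Gata2, -1.77 for Gata1, -1.75 for Esr1, -0.47 for Kit and 1.04 for Zfpm1. No SREBP2+EST library overlapped with a Vector library for any member.

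**Figure D2:**
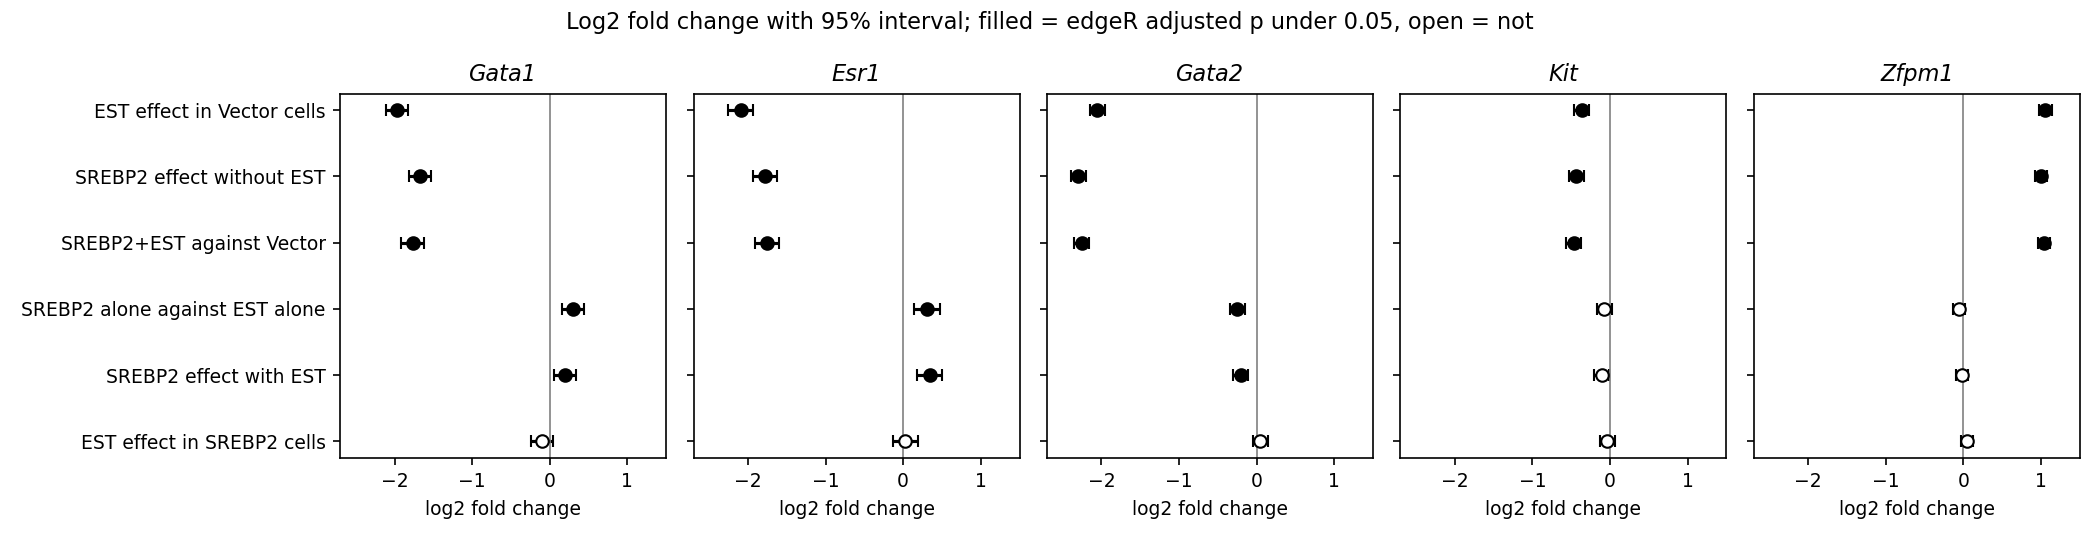
Log2 fold changes of the 5 members in 6 comparisons of groups, with 95% intervals from the edgeR fit over 12 libraries. Filled points had an adjusted p under 0.05 and open points did not. The 3 comparisons with Vector lie far from 0 for Gata1, Esr1, Gata2 and Zfpm1 and nearer to it for Kit, and the other 3 comparisons lie between -0.25 and 0.34 for all members.

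EST added to SREBP2 cells gave no call for any of the 5 members. Of the 11177 genes tested, 0% passed the edgeR test in this comparison, and 506 genes, or 4.53%, had an unadjusted p under 0.05. Without the filter on low counts edgeR called 22 of 17167 genes, and DESeq2 called 12 with it. The log2 fold change of Gata2 was 0.05 with a 95% interval of -0.05 to 0.15, and that of Kit was -0.03 with an interval of -0.13 to 0.06. Zfpm1 gave 0.05 with an interval of -0.03 to 0.12. These intervals leave out changes of the size that EST gave in Vector cells. For Gata1 the log2 fold change was -0.10 with an interval of -0.24 to 0.04, and for Esr1 it was 0.03 with an interval of -0.13 to 0.19, and the libraries of the 2 groups overlapped for every member. Without SREBP2 library 1 and SREBP2+EST library 1, 1567 of 11292 genes were called in this comparison, and Gata1 was among them with a log2 fold change of -0.24 (edgeR adjusted p = 0.001899). Esr1 then gave -0.12 (edgeR adjusted p = 0.2333), Kit -0.11 (adjusted p = 0.0546), Gata2 0.06 and Zfpm1 0.05, all uncalled. Among the libraries left, the groups overlapped for Gata2 and Zfpm1 but not for Gata1, Esr1 and Kit, which were lower in SREBP2+EST.

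The difference between the EST effect in SREBP2 cells and that in Vector cells was tested itself, as an interaction, and all 5 members passed, in a test that 59% of the genes passed, 29.8% with a positive and 29.2% with a negative difference. The difference was 2.12 on the log2 scale for Esr1, 2.10 for Gata2, 1.87 for Gata1, 0.33 for Kit and -1.01 for Zfpm1. In each case the sign was opposite to that of the EST effect in Vector cells. Without both library 1s these 5 calls and their signs remained.

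The levels in the 3 groups other than Vector could be ordered in part. For Gata2 the order was Vector+EST, with a mean of 156 ± 4.55 CPM, then SREBP2+EST with 135 ± 8.82 and SREBP2 with 131 ± 2.80 (SD, n = 3). SREBP2 alone gave lower Gata2 than EST alone, with a log2 fold change of -0.25 (edgeR adjusted p = 0.0007661), and with EST in both groups SREBP2 lowered Gata2 by 0.20 on the log2 scale (log2 fold change -0.20, edgeR adjusted p = 0.004526). In neither comparison did the libraries overlap, and SREBP2 and SREBP2+EST did not differ beyond their spread. With the header number as a replicate block, the second of these values was -0.18 and was no longer called (adjusted p = 0.07016). Without both library 1s the values were -0.24 and -0.18, and both were called.

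Gata1 and Esr1, by contrast, had their lowest mean in Vector+EST. Gata1 averaged 453 ± 28.5 CPM in Vector+EST, 519.5 ± 54.7 in SREBP2+EST and 557 ± 40.2 in SREBP2, and Esr1 averaged 69.6 ± 5.72, 88.1 ± 6.73 and 86.3 ± 9.67 CPM. SREBP2 alone gave higher Gata1 than EST alone, by 0.30 on the log2 scale (edgeR adjusted p = 0.003661), and higher Esr1 by 0.31 (adjusted p = 0.008459). The groups did not overlap for either gene, and the Esr1 call was lost without Vector+EST library 3 (0.25, adjusted p = 0.05597). With EST in both groups the difference was 0.34 for Esr1 (edgeR adjusted p = 0.004977), without overlap, and 0.20 for Gata1 (adjusted p = 0.04286), for which SREBP2+EST library 2 lay among the Vector+EST libraries. The Gata1 call was lost in 7 of the 12 fits that left out a library, those without Vector libraries 1, 4 or 5, Vector+EST libraries 1 or 3, or SREBP2+EST libraries 1 or 5, with adjusted p from 0.0589 to 0.2003 and log2 fold changes from 0.12 to 0.22. Without both library 1s it was 0.11 (adjusted p = 0.05355), and DESeq2 gave 0.18 (adjusted p = 0.05198). The call was also lost with the replicate block (0.26, edgeR adjusted p = 0.05712), relative log expression scaling (0.18, adjusted p = 0.0716) and library totals (0.15, adjusted p = 0.07769). Without both library 1s the Esr1 difference with EST was 0.28, and SREBP2 alone stood above EST alone by 0.35 for Gata1 and 0.40 for Esr1, all of them called.

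Kit and Zfpm1 differed little among these 3 groups. Kit averaged 253 ± 2.07 CPM in Vector+EST, 241 ± 9.51 in SREBP2 and 235 ± 15.4 in SREBP2+EST, and Zfpm1 averaged 1202, 1151 and 1188 CPM, with SDs of 40.9, 29.0 and 40.8. SREBP2 alone against EST alone gave -0.07 for Kit, with a 95% interval of -0.17 to 0.02 (edgeR adjusted p = 0.2825), and -0.06 for Zfpm1, with an interval of -0.14 to 0.02 (adjusted p = 0.2469). For Kit the libraries of these 2 groups did not overlap, at 232.5 to 251.2 CPM against 251.8 to 255.6 CPM, and for Zfpm1 they did. With scaling by library totals Zfpm1 gave -0.10 there and was called (edgeR adjusted p = 0.03285). With EST in both groups the log2 fold change was -0.11 for Kit, with an interval of -0.20 to -0.01 (edgeR adjusted p = 0.1142), and -0.02 for Zfpm1, with an interval of -0.09 to 0.06 (adjusted p = 0.796). Library totals gave -0.15 for Kit in this comparison, which was called (edgeR adjusted p = 0.01675). Without SREBP2+EST library 1, which had the highest Kit level of its group at 253 CPM, the Kit difference was -0.16 and was called (adjusted p = 0.01043). Without both library 1s it was also -0.16 and called (adjusted p = 0.001184), while Zfpm1 gave 0.0019 with EST and -0.05 for SREBP2 alone against EST alone, and Kit -0.05 in the latter. Of the members, 3 passed the test in SREBP2 alone against EST alone, where 23.4% of the genes did (14.4% higher and 8.96% lower), and the same 3, Gata1, Esr1 and Gata2, passed for SREBP2 with EST, where 21.9% did (14% higher and 7.94% lower).

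Esr1 reads followed Gata1 reads closely from library to library. Esr1 counts were between 14.7% and 17.3% of Gata1 counts in the 12 libraries, with a mean of 16.1% ± 0.909 (SD, n = 12). The ratio of Esr1 to Gata1 counts was 16.8% ± 0.562 in Vector, 15.4% ± 0.456 in Vector+EST, 15.5% ± 0.713 in SREBP2 and 17.0% ± 0.511 in SREBP2+EST (n = 3 each). Vector+EST and SREBP2 both lay below Vector and SREBP2+EST in every library, and SREBP2 overlapped with Vector+EST. This ratio was chosen after the counts had been seen, so no test was made of it. Across libraries the log2 CPM values of both genes gave Pearson's r = 0.996 (n = 12), and their deviations from the group means gave r = 0.903, as a description over points that share library and depth. For no other pair with Gata1 were the deviations as close, with r = 0.771 for Kit, 0.280 for Gata2 and 0.220 for Zfpm1. Gata2 and Zfpm1, which moved in opposite directions between groups (r = -0.982), deviated together within groups (r = 0.873).

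**Figure D3:**
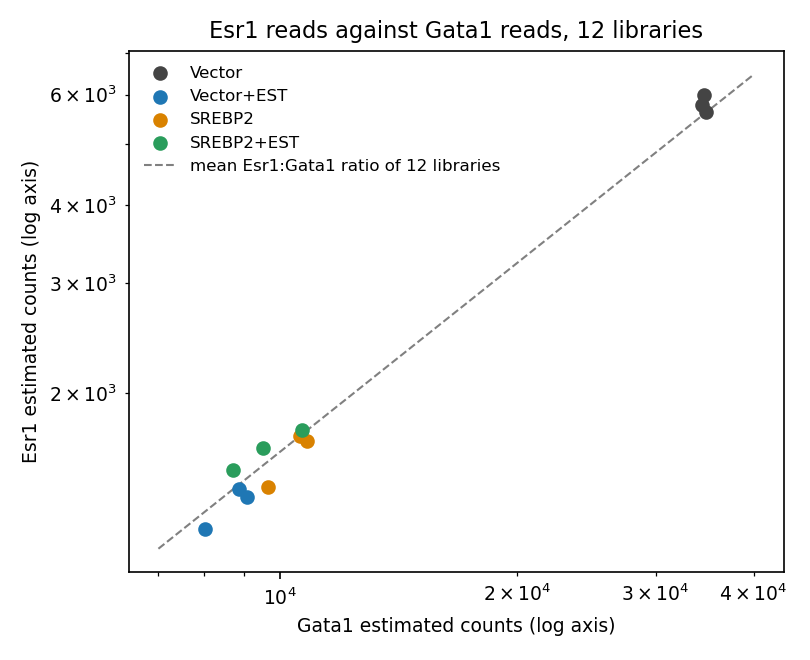
Estimated counts of Esr1 against those of Gata1 in the 12 libraries, both on log axes, colored by group, with a dashed line at the mean ratio of the 12 libraries. All libraries lie near the line, with Esr1 at 14.7% to 17.3% of Gata1, and the 3 Vector libraries lie apart from the other 9 at the upper right.

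The other members of both receptor and GATA families contributed few reads. Esr2, estrogen receptor β, averaged at most 0.523 CPM in any group. Among GATA factors, Gata3 averaged 6.14 CPM in Vector, 6.08 in Vector+EST, 6.76 in SREBP2 and 8.06 in SREBP2+EST, and it passed the test as higher only in the comparisons of SREBP2+EST with Vector+EST (log2 fold change 0.41, edgeR adjusted p = 0.01276) and with Vector (0.39, adjusted p = 0.003685). Gata4, Gata5, Gata6, Trps1 and Zfpm2, the other FOG gene, did not reach the filter, and the highest group mean among them was that of Gata5 in Vector+EST, 0.347 CPM. Kitl, which encodes the ligand of KIT, averaged at most 0.0177 CPM.

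Ratios within a library do not depend on how libraries are scaled, and that of both GATA factors was lower in the SREBP2 groups than in the Vector groups. The ratio of Gata2 to Gata1 counts was 0.367, 0.356 and 0.369 in the Vector libraries and 0.334, 0.359 and 0.340 in the Vector+EST libraries. These groups overlapped. In the SREBP2 libraries the ratio was 0.250, 0.228 and 0.229, and in SREBP2+EST it was 0.226, 0.277 and 0.284, below every library of both Vector groups. SREBP2+EST overlapped with SREBP2 through SREBP2+EST library 1, at 0.226, and without that library the groups did not overlap. The ratio of Zfpm1 to Gata2 counts was 0.896 ± 0.00862 in Vector, 7.72 ± 0.0805 in Vector+EST, 8.80 ± 0.137 in SREBP2 and 8.79 ± 0.289 in SREBP2+EST (SD, n = 3). No library of the 3 other groups was below 7.64, and no Vector library was above 0.903. These ratios are given as a description, with no test.

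**Figure D4:**
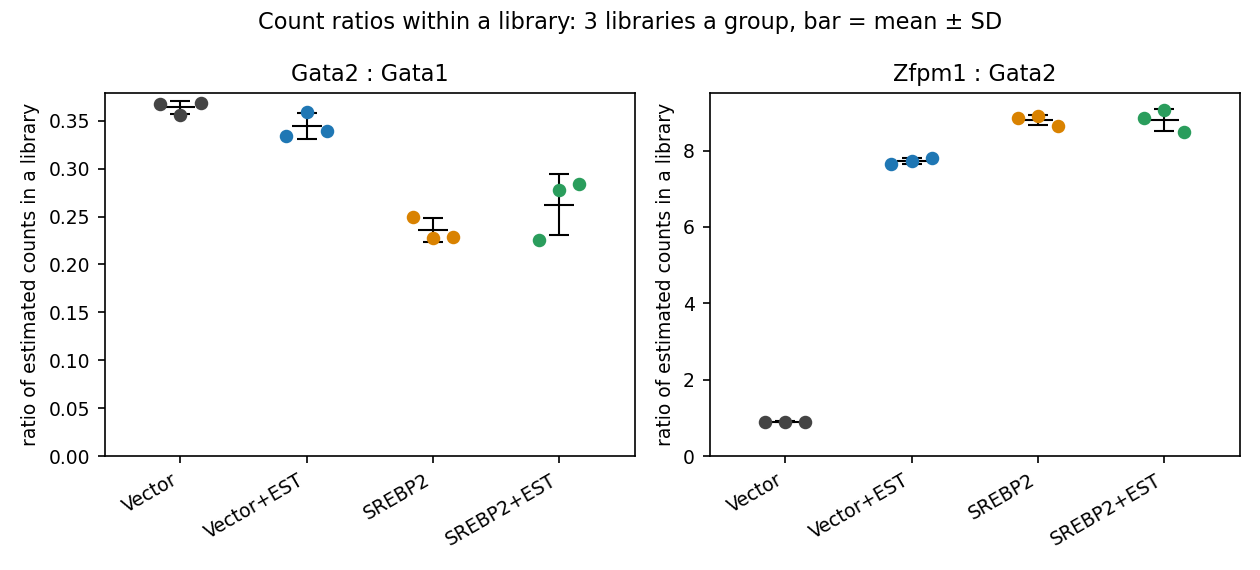
Ratio of Gata2 to Gata1 counts and of Zfpm1 to Gata2 counts in each library, on linear axes from 0, with bars for the mean ± SD of 3 libraries. The Gata2 to Gata1 ratio is 0.334 to 0.369 in both Vector groups and 0.226 to 0.284 in both SREBP2 groups, and the Zfpm1 to Gata2 ratio is at most 0.903 in Vector and at least 7.64 in the other groups.

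Other genes known to be lowered by GATA1 mostly fell with the members. Of 8 such genes tested, members left out, 7 were lower and 1 higher with EST in Vector cells, with a median log2 fold change of -0.76 against 0.01 over all genes tested, and 6 were lower and 2 higher with SREBP2 without EST, with a median of -0.67 against 0.03. Of all genes tested, 35.5% were lower and 35.2% higher in the former comparison, and 33.8% lower and 37.7% higher in the latter. Lyl1, a bHLH factor of progenitors, fell furthest, from 339 CPM in Vector to 16.8 CPM with EST and 25.5 CPM with SREBP2 (log2 fold changes -4.33 and -3.73). The highest of the list in Vector were Ccnd2, which encodes cyclin D2, and Myc, and both fell in both comparisons, Ccnd2 by 1.74 and 1.53 and Myc by 1.67 and 1.46 on the log2 scale. Hhex, a homeobox gene, rose in both (log2 fold changes 1.01 and 1.21). Spi1, which encodes the myeloid factor PU.1, fell from 56.8 to 38.3 CPM with EST and rose to 73.9 CPM with SREBP2.

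Genes known to be raised by GATA1 did not rise as a group. Of 12 tested, members left out, 3 were higher and 8 lower with EST in Vector cells, with a median log2 fold change of -0.77, and 3 were higher and 6 lower with SREBP2 without EST, with a median of -0.31. The shares over all genes were 35.2% higher and 35.5% lower, and 37.7% higher and 33.8% lower, so that 3 of 12 higher was not far from the background. The 3 that rose were the same in both comparisons. Alas2, the erythroid enzyme that opens heme synthesis, rose from 52.1 CPM in Vector to 138 CPM with EST and 176 CPM with SREBP2 (log2 fold changes 1.40 and 1.76), Gfi1b, a repressor, from 292 to 752 and 747 CPM (1.36 in both), and Klf1, an erythroid activator, from 267 to 335 and 333 CPM (0.33 and 0.32). Gfi1b, Klf1 and Spi1 were named after their values had been seen. Slc4a1, the anion exchanger band 3 of the red cell membrane, fell furthest, from 67.6 to 2.86 and 4.04 CPM (log2 fold changes -4.56 and -4.06). Of the globin genes, the highest of the list, Hba-a1 fell by 0.83 and 0.92 on the log2 scale, and Hbb-b1 did not pass the test (-0.12 and -0.06). Their reads are shared with near-identical copies and are uncertain.

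The genes of FOG1's partners mostly fell where Zfpm1 rose. FOG1 recruits the NuRD remodelling and deacetylase complex and CtBP corepressors, and of 16 genes of these complexes and of the FOG1 partner Tacc3, 2 were higher and 13 lower in both comparisons, with median log2 fold changes of -0.36 with EST in Vector cells and -0.39 with SREBP2 without EST, against 0.01 and 0.03 over all genes. Among all genes 35.2% were higher and 35.5% lower with EST, and 37.7% and 33.8% with SREBP2. Chd4, the main remodelling ATPase of NuRD and the highest gene of the list, fell furthest, from 656 CPM in Vector to 227 CPM with EST and 231 CPM with SREBP2 (log2 fold changes -1.53 and -1.50). Rbbp7, a histone-binding subunit and the next highest, fell by 0.41 and 0.46. The subunit genes Gatad2b and Mbd2 were the 2 that rose, Gatad2b by 0.49 and 0.35 and Mbd2 by 0.29 and 0.39 on the log2 scale.

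Genes downstream of KIT moved in both directions. Of 17 tested besides Kit, 4 were higher and 10 lower with EST in Vector cells (median -0.24), and 8 were higher and 8 lower with SREBP2 without EST (median -0.13). These were 14 and 16 of 17 called, where 70.6% and 71.5% of all genes were called. Ptpn6, the phosphatase SHP-1 that restrains KIT signaling, fell furthest, from 110 CPM in Vector to 24.2 CPM with EST and 27.1 CPM with SREBP2 (log2 fold changes -2.18 and -2.02). Cbl, a ubiquitin ligase that also restrains it, gave the largest rise with EST, from 102 to 187 CPM (0.86), and stood at 197 CPM in SREBP2 (0.95). The largest rise with SREBP2 was that of Src, at 0.444 CPM in Vector and 1.10 CPM in SREBP2 (1.29). The adaptor gene Grb2 and the phosphatase gene Ptpn11, the highest of the list, fell in both comparisons, Grb2 by 0.85 and 0.82 and Ptpn11 by 0.32 and 0.28.

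Of 10 genes of other estrogen receptors, related receptors and their coregulators, Esr1 left out, 1 was higher and 3 were lower with EST in Vector cells (median -0.09), and 2 were higher and 5 lower with SREBP2 without EST (median -0.17). These were 4 and 7 of 10 called, where 70.6% and 71.5% of all genes were called. Ncoa1, a coactivator, rose from 26.2 to 46.9 and 44.2 CPM (log2 fold changes 0.84 and 0.76), and the corepressor gene Nrip1 fell from 92.6 to 66.9 and 61.2 CPM (-0.47 and -0.60). The highest of these genes were Ncor1 and Ncoa2. Ncoa2 fell by 0.43 and 0.37 on the log2 scale, and Ncor1 gave -0.07, which was not called, and -0.12 (edgeR adjusted p = 0.015).

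**Figure D5:**
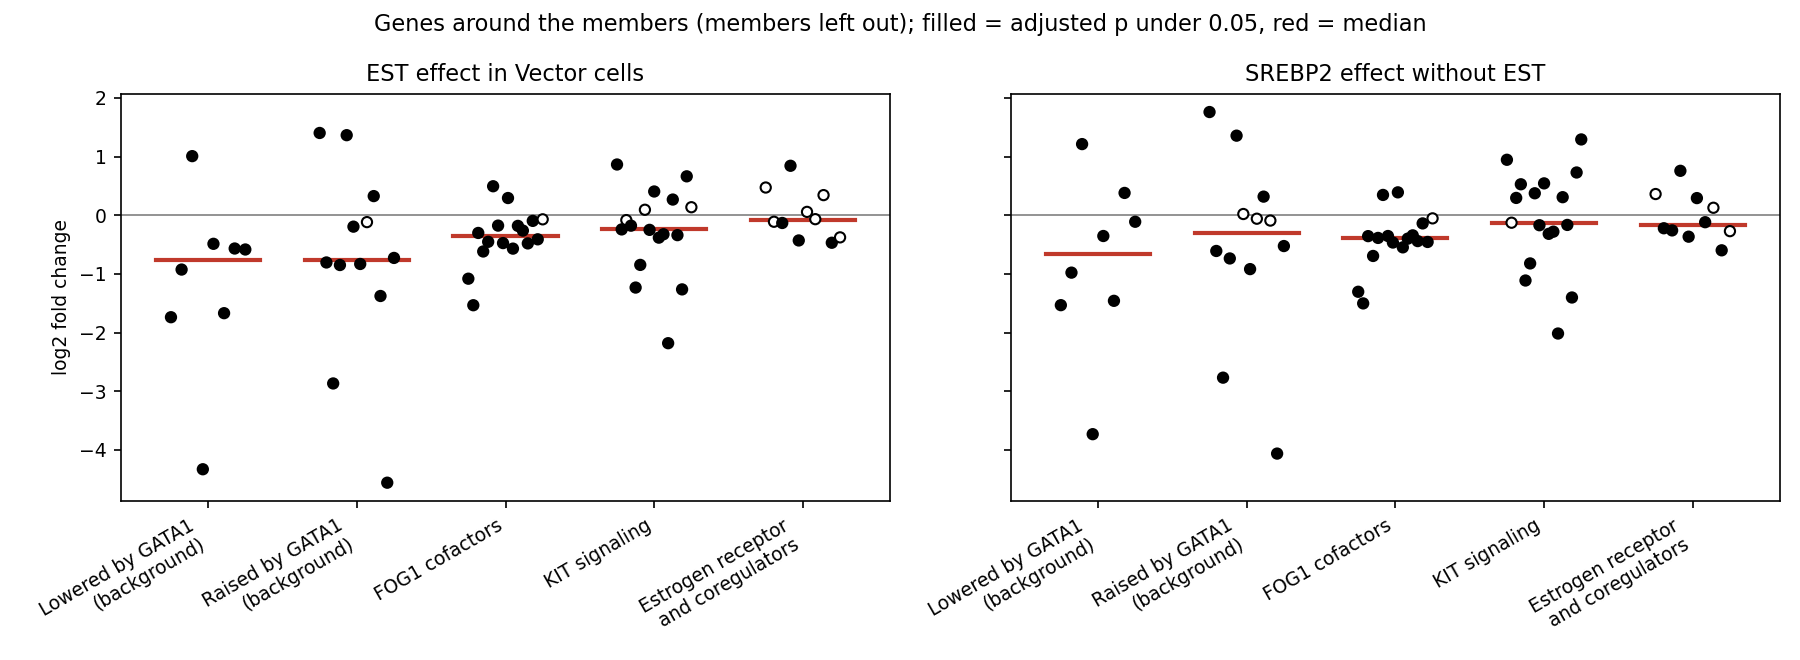
Log2 fold changes of the single genes of 5 lists, members left out, for EST in Vector cells and for SREBP2 without EST. Filled points had an edgeR adjusted p under 0.05, open points did not, and red bars mark medians, which run from -0.77 for genes raised by GATA1 to -0.09 for the estrogen receptor list with EST in Vector cells.

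The genes with the profiles most like those of the members were sought among 8553 genes by the root mean square difference of log2 CPM, each gene centered on its mean over the 12 libraries. For Esr1 the closest gene was Gata1, at 0.0777, followed by Col18a1, a collagen gene, at 0.0951 and the kinase gene Pim1 at 0.0981. For Gata1 the closest were Septin9, at 0.0770, then Esr1 and Hif3a, at 0.0787. Septin9, a cytoskeletal GTPase gene, averaged 207 CPM in Vector and 57.0 to 63.7 CPM in the other groups. The profiles closest to Gata2 were those of the kinase gene Dyrk3, the plexin gene Plxna3 and Rcsd1, at 0.130 to 0.147. Kit was most like AU020206, Fam120a and Pacs1, at 0.0272 to 0.0315. Zfpm1 was most like Nudt9, Eif2ak1 and Pak4, at 0.0416 to 0.0427. Eif2ak1 encodes the heme-regulated kinase HRI, and it averaged 120.4 CPM in Vector and 235 to 244 CPM in the other groups. With Pearson's r as the measure, 0 of the 3 genes were the same for any member.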

How the data were processed

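Poly(A)-selected RNA of 12 libraries was sequenced in single reads of 50 bases. Estimated counts of 17210 genes, without normalization, were deposited by the authors, and 66.5% of values are whole numbers. The submitters' processing notes name HISAT2 2.0.4, Bowtie2 2.2.5, RSEM 1.2.12, DESeq2 1.4.5 and GRCm38.p6. Estimates of this kind divide reads between genes that share sequence. A second deposited table, of the authors' own comparisons (fold changes and p-values per transcript), was not used.

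Columns were mapped to groups by the group name in their headers, and the number in a header is not the replicate number of a title. Expected counts were rounded to whole numbers, and edgeR 4.0.16 (R 4.3.3) was run with filterByExpr (11177 genes kept, 6033 left out), TMM scaling and the quasi-likelihood F-test on 1 mean per group with all 12 libraries in the fit. Benjamini-Hochberg adjustment ran over all genes tested, with 0.05 as the threshold. A standard error is the ratio of the log2 fold change to the root of F. The interaction is the EST effect in SREBP2 cells minus that in Vector cells. On simulated counts for the EST effect in Vector cells (10864 genes kept, 200 of them changed by known folds), 70% of genes changed 1.25-fold, 94% of those changed 1.5-fold and 100% of those changed 4-fold were recovered, and 7 of 188 calls were false. Only these 200 genes were changed, as many up as down, whereas 70.6% of genes were called in the real comparison. Recovery and false calls with so many genes changed were not simulated.

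The members and gene lists were chosen with earlier results of these data known. The text names the members and Srebf2, from each list the genes with the largest rise, the largest fall and the 2 highest levels, and for each member the 3 genes of most similar profile (root mean square difference of log2 CPM, prior count 2, among genes whose log2 CPM averaged 3 or more). Alternatives were relative log expression scaling, library totals, other filters on low counts (none, or at least 10 counts in every library), the 6 libraries compared alone, a block on header numbers, each library left out, SREBP2 library 1 and SREBP2+EST library 1 both left out, and DESeq2 1.42.0. Gene positions were taken from GENCODE M21 and promoter sequences from RefSeq, both on GRCm38.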

Additional observations from a re-analysis of the deposited data

Results flagged for a closer look

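The EST effect in SREBP2 cells differed from that in Vector cells for all 5 members, by the edgeR test of the interaction with Benjamini-Hochberg adjustment over 11177 genes, of which 59% passed. For Gata1 the difference was 1.87 on the log2 scale (SE 0.094, adjusted p = 1.292e-10). The difference for Esr1 was 2.12 (SE 0.11, adjusted p = 1.363e-10), and that for Gata2 was 2.10 (SE 0.064, adjusted p = 4.43e-13). Kit gave 0.33 (SE 0.064, adjusted p = 0.0003298). The difference for Zfpm1 was -1.01 (SE 0.052, adjusted p = 1.486e-10). In each case EST moved the member in all 3 libraries of Vector+EST against all 3 of Vector, while the libraries of SREBP2 and SREBP2+EST overlapped. For Gata1, Esr1 and Kit this overlap came only through SREBP2 library 1 and SREBP2+EST library 1. In the other libraries Gata1 was at 585 and 575 CPM in SREBP2 and at 469 and 513 CPM in SREBP2+EST. Without both library 1s the EST effect on Gata1 in SREBP2 cells was -0.24 and was called (edgeR adjusted p = 0.001899). Those on Esr1 (-0.12) and Kit (-0.11) were uncalled. Between the SREBP2 group without EST and Vector+EST the log2 fold changes of the members ran from -0.25 to 0.31.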

How the results depend on the processing

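The 35 results on members (5 genes in 7 contrasts) were recomputed under 20 other settings, and 668 of 695 values kept their call and direction. All 192 recomputed counts of called genes in the lists were within 1.5 times the count reported. Every call against Vector and every interaction call was kept, and 25 of the 35 results kept theirs under every setting. Gata1 for SREBP2 with EST lost its call with relative log expression scaling (0.18), library totals (0.15), the replicate block (0.26), DESeq2 (0.18) and both library 1s left out (0.11), and it ran from 0.12 to 0.27 over single libraries left out. Gata2 in this contrast lost its call with the replicate block (-0.18). Kit gained a call there with library totals (-0.15) and both library 1s left out (-0.16), and ran from -0.16 to -0.078 over single libraries left out. Zfpm1 there turned to 0.0019 with both library 1s left out, and ran from -0.044 to 0.011 over single libraries left out. For EST in SREBP2 cells, both library 1s left out gave a call for Gata1 (-0.24) and turned the sign of Esr1 (-0.12), the replicate block turned that of Kit (0.0068), and single libraries left out gave -0.061 to 0.085 for Esr1 and -0.010 to 0.074 for Gata2. For SREBP2 alone against EST alone, library totals gave a call for Zfpm1 (-0.10), and single libraries left out gave 0.25 to 0.40 for Esr1. The cause was not tested. Libraries with the same header number did not deviate together. Deviations from group means correlated at -0.17 to 0.067 in 13 pairs with the same number and at -0.076 to 0.13 in 41 others. The -0.17 was that of SREBP2 library 1 with SREBP2+EST library 1. Whether libraries of the same number share an origin was not tested. The replicate block changed no other call of a member. It gave 7081 calls for EST in Vector cells against 7893, and 1208 against 2448 for SREBP2 with EST. For EST in SREBP2 cells the count of calls was 0 with edgeR, 22 without a filter, 8 with only the 6 libraries, 12 with DESeq2, 0 to 18 over single libraries left out, and 1567 with both library 1s left out. What depth limits was not tested. Kit had 4203 to 4674 counts in the SREBP2+EST libraries, and its CV between them was 6.56%.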

Other observations

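Genes listed as neighbors of the members, which lie 11.2 to 553 kb from them, moved in both directions. Those of Kit all lie 276 kb or more from it. Of 20 neighbors tested, 5 were higher and 12 lower with EST in Vector cells, with a median log2 fold change of -0.36, and 5 were higher and 11 lower with SREBP2 without EST, also with a median of -0.36, while of all genes tested 35.2% were higher and 35.5% lower with EST and 37.7% higher and 33.8% lower with SREBP2. Around the members that fell, the numbers higher and lower with EST in Vector cells were 0 and 3 of 5 tested for Gata1, 1 and 2 of 3 for Gata2 and 1 and 3 of 5 for Esr1, and with SREBP2 without EST they were 0 and 3, 0 and 2, and 1 and 3. Around Kit, which also fell, 3 of 4 tested neighbors rose in both comparisons. Clock, the circadian activator, lies 553 kb from Kit and was at 19.0 CPM in Vector, 41.9 in Vector+EST, 39.6 in SREBP2 and 40.0 in SREBP2+EST. Around Zfpm1, which rose, 3 of 3 tested neighbors were lower with EST in Vector cells, and 1 was higher and 2 were lower with SREBP2 without EST. Among them, Mvd lies 95.7 kb from Zfpm1 and encodes an enzyme of the mevalonate pathway that SREBP2 activates. Its level was 114 CPM in Vector, 80.6 in Vector+EST, 511 in SREBP2 and 512 in SREBP2+EST, so that EST and SREBP2 moved Mvd in opposite directions (log2 fold changes -0.49 and 2.17, edgeR adjusted p = 6.1e-07 and 6.4e-15), unlike Zfpm1.

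Markers of other blood lineages were summed as well. The summed level of 6 megakaryocyte markers was 55.1 to 63.4 CPM in Vector, 44.1 to 52.8 in Vector+EST, 88.1 to 107 in SREBP2 and 95.3 to 113 in SREBP2+EST, so that by this sum both SREBP2 groups lay above both Vector groups. The single markers did not all follow the sum. Itga2b had its highest level, 29.4 CPM, in a Vector library. Pf4 and Gp1ba had theirs, 52.9 and 54.0 CPM, in libraries of the SREBP2 groups. The 7 mast cell markers, a lineage in which GATA2 and KIT are both active, summed to 16.4 to 17.0 CPM in Vector and 6.47 to 12.1 CPM in the other groups. The highest of these markers was Cpa3, which reached 12.1 CPM in a Vector library. Hdc, by contrast, had its highest level, 6.39 CPM, in an SREBP2 library. The mast cell protease genes Cma1, Tpsb2 and Mcpt4 had at most 2 counts in any library. The 5 macrophage markers summed to between 2.05 and 4.99 CPM.

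Nfe2, a factor of the list of genes known to be raised by GATA1, was at 263 CPM in Vector, 101 in Vector+EST, 247 in SREBP2 and 226 in SREBP2+EST, and was named after its values had been seen. Unlike Gata2, which fell in all 3 groups, it fell with EST in Vector cells (log2 fold change -1.38) and was not called with SREBP2 without EST (-0.09, edgeR adjusted p = 0.4342). With EST in both groups, Nfe2 was higher with SREBP2 (log2 fold change 1.15, SE 0.11, adjusted p = 4.377e-07).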
